A study of Mus musculus with 6 samples.

Results

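Chemokine and homing receptors were followed as 7 genes, *Ccr2*, *Cxcr3*, *Cxcr4*, *Cxcr6*, *Cx3cr1*, *S1pr5* and *Ccr8*, out of 34187 genes counted in each cell. The genes were a named list, drawn up with earlier results of these data known, and no measured threshold chose them. C57BL/6 mice carried subcutaneous 6694c2vTRP1 tumors, a pancreatic cancer model, and received PBS, mono-IL10 or IL10/2-Trikine into the peritoneum in 2 doses beginning on day 8, and the tumors were collected at day 14. Mono-IL10 is a monomeric human IL-10, given at 26 μg per mouse, and IL10/2-Trikine, given at 30.6 μg per mouse, adds to it an arm that recruits the IL-2 receptor β chain. CD45+ cells were isolated with beads, tagged by mouse and pooled by treatment, so that each group was 1 library of 5 mice and treatment and library cannot be told apart. The mouse was the replicate in every test.

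Chemokine receptors are G protein-coupled receptors that steer leukocytes along gradients of small secreted ligands, and each cell type carries its own set. CCR2 draws monocytes out of the bone marrow toward CCL2 and related ligands, and CX3CR1, the fractalkine receptor, is kept by many tissue macrophages. CXCR3 reads the interferon-induced ligands CXCL9 and CXCL10, CXCR6 binds CXCL16, CXCR4 binds CXCL12, CCR8 marks many tumor regulatory T cells, and S1PR5 is the sphingosine 1-phosphate receptor that lets mature NK cells leave marrow and lymph nodes.

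The authors' annotation named 516 PBS, 843 mono-IL10 and 725 IL10/2-Trikine cells as T or NK cells, of which 348, 635 and 400 were assigned to a mouse by hashtag. The isolate also held many other cells: 41731 tumor epithelial-like and 17121 macrophage-like cells were found by marker genes, although CD45 was the basis of the isolation. Names ending in "-like" came from clusters built without the 7 receptors. Gene UMIs, which count distinct captured molecules, totalled 364814102 to 515236552 per library. Between 408 and 700 barcodes were shared by pairs of libraries, and 0 of the annotated cells were. Levels are given as CPM, UMIs per 1000000 gene UMIs of the same cells. The summed macrophage markers in T and NK cells ranged from 336.6 to 503.1 CPM in PBS mice, 184.8 to 356.4 in mono-IL10 mice and 257.5 to 687.9 in IL10/2-Trikine mice, against about 26770 in macrophage-like cells.

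Promoter sequence is shown for *Cxcr6* and *Cxcr4*, which are among the receptors whose treatment difference was not the same in lymphoid and myeloid cells. Each run covers 250 to 11 bases upstream of the RefSeq start on build GRCm38.p6, and capitals mark 2 motifs on either strand. The ETS core was searched as GGAA. The TATA box was searched as TATAAA. The *Cxcr6* run lies on the plus strand at chr9:123806227-123806466 and the *Cxcr4* run on the minus strand at chr1:128592310-128592549.
Cxcr6: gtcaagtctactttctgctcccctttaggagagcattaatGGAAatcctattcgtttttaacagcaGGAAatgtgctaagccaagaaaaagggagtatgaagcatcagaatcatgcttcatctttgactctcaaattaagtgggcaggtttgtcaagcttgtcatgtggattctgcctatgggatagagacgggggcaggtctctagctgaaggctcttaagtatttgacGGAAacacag
Cxcr4: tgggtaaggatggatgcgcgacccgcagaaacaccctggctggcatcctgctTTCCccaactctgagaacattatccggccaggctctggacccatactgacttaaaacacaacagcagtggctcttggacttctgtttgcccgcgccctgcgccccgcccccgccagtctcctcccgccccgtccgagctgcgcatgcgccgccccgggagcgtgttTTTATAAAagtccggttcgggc
All 7 receptors matched a RefSeq promoter of 250 upstream bases. The ETS core occurred in 7 of the 7 and in 93.45% of 32851 promoters. The TATA box occurred in 1 of the 7, *Cxcr4*, where matches on the 2 strands overlap, and in 12.37% of all promoters. The STAT-type GAS motif, searched as TTCNNNGAA on both strands, occurred in 0 of the 7 and in 7.02% of all. These are matches of letters and not measured binding.

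Across the 19 named cell groups of at least 50 cells, each receptor had its own pattern. A further 24945 cells lay in clusters that met no name and are left out of these groups and of the classes tested, and they held 107.3 CPM of *Ccr2*, 325.9 of *Cxcr4* and 61.9 of *Cx3cr1*. *Ccr2* was highest in the annotated Treg cluster at 891.9 CPM, with a 95% exact Poisson interval of 793.7 to 998.9, and then in monocyte-like cells at 714.7 CPM, with an interval of 679.1 to 751.7. NK and Cycling_NK cells followed at 369.4 and 368.5 CPM, with overlapping intervals. After each cell was thinned to 1500 UMIs, 55.1% of Treg cells and 38.1% of NK cells held a *Ccr2* UMI, against 0.259% of tumor epithelial-like cells, which should lack it. Median depths before thinning were 2421, 3034 and 12260 UMIs, and the unthinned shares were 66.9%, 58.2% and 1.63%. These intervals cover counting error only.

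*Cxcr6* was highest in act_CD4T cells at 426.5 CPM, above Treg cells at 304.3 CPM, and its interval did not overlap the next. *Ccr8* led in Treg cells at 184.9 CPM, with act_CD4T cells second at 108.4 CPM and every other group at or below 16.5 CPM. *Cxcr3* was highest in naive_CD8T and naive_CD4T cells, at 105.5 and 104.5 CPM, where mono-IL10 gave 160 of 200 and 42 of 73 cells. By library those clusters held 82.4 and 43.1 CPM under PBS and 108.7 and 145.2 under mono-IL10, with overlapping intervals in each. *Cxcr4* was broad, from 975.4 CPM in neutrophil-like cells and 617 CPM in macrophage-like cells to 7.2 CPM in tumor epithelial-like cells. *Cx3cr1* was highest in macrophage-like cells at 140.9 CPM, then in mast cell or basophil-like cells at 70.1 CPM. Other myeloid groups were no higher than some lymphoid ones. Mature dendritic cell-like, monocyte-like and dendritic cell-like cells held 40.3, 30.8 and 20.2 CPM of it, and Treg and act_CD4T cells 35.8 and 28.15 CPM. The NK cluster held 3.0 CPM over the 3 libraries. *S1pr5* was scarce: 412 UMIs were counted in 92853 cells, 335 of them in tumor epithelial-like cells, at 0.455 CPM, and 2 in annotated cells, and it did not pass the low-count filter in any cell group.

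**Figure D1:**
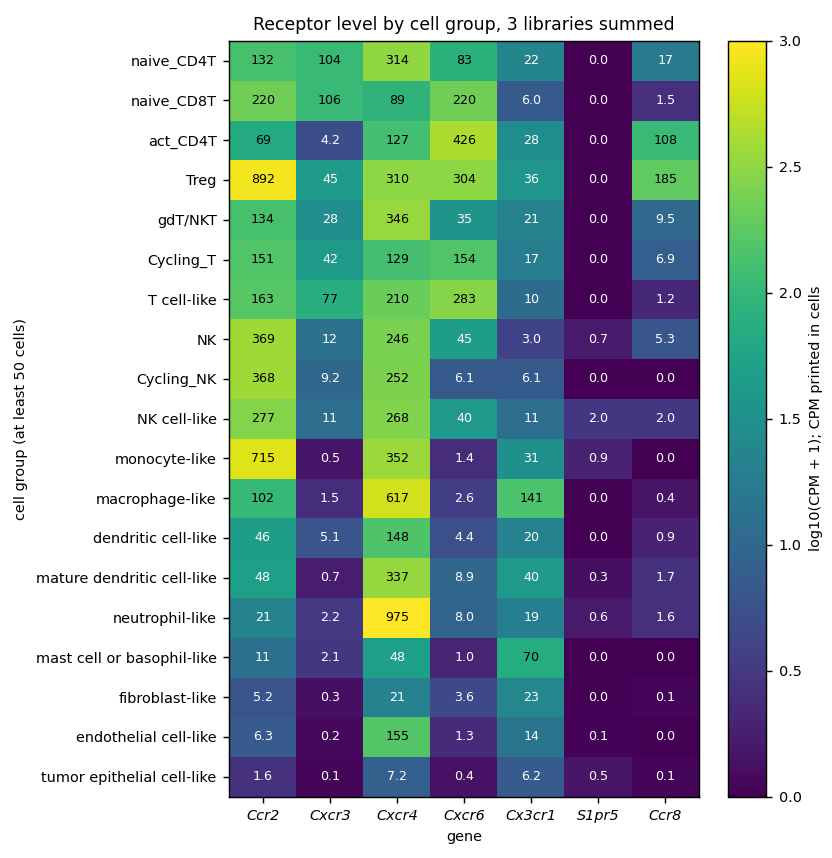
Level of each receptor (columns) in each cell group of at least 50 cells (rows), in CPM over the 3 libraries, colored by log10(CPM + 1). *Ccr2* is brightest in Treg and monocyte-like cells, *Cxcr4* in neutrophil-like cells, *Cxcr6* in act_CD4T cells, and *S1pr5* is dark throughout.

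The genes closest to *Cxcr3*, *Cxcr4*, *Cxcr6*, *Cx3cr1* and *Ccr8* across these 19 groups, by Pearson's r of log2(CPM + 10) over genes reaching 50 CPM, were *Prkcz* for *Cxcr3* (r = 0.946), *Fosl2* for *Cxcr4* (0.918), *Pdcd1* for *Cxcr6* (0.986), *Osbpl8* for *Cx3cr1* (0.873) and *Sdf4* for *Ccr8* (0.978). The groups share libraries, so these values are descriptions.

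In all annotated T and NK cells, *Ccr2* was higher and *Cxcr6* lower under IL10/2-Trikine than under PBS. *Ccr2* in the 5 PBS mice was 178.5, 231.6, 212.8, 159.0 and 334.6 CPM, and in the 5 IL10/2-Trikine mice 444.6, 333.9, 426.5, 401.5 and 258.1 CPM. The groups overlapped through PBS mouse 5, and 3 IL10/2-Trikine mice lay above every PBS mouse. The difference was 0.77 ± 0.17 on the log2 scale (SE; adjusted p = 0.00405, edgeR quasi-likelihood test with Benjamini-Hochberg adjustment over all genes). Mono-IL10 mice held 260.3, 262.8, 223.7, 268.0 and 270.7 CPM, and IL10/2-Trikine was above mono-IL10 by 0.45 ± 0.15, which did not pass (edgeR adjusted p = 0.0662).

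*Cxcr6* in T and NK cells was 183.6, 115.8, 114.6, 82.01 and 115.8 CPM in PBS mice, 222.1, 134.9, 184.8, 192.8 and 138.3 CPM in mono-IL10 mice and 88.92, 75.06, 48.29, 13.61 and 35.94 CPM in IL10/2-Trikine mice. All 5 IL10/2-Trikine mice lay below all 5 mono-IL10 mice, and 4 of them below every PBS mouse. Against mono-IL10 it fell by 1.69 ± 0.25 on the log2 scale (edgeR adjusted p = 8.22e-05), and against PBS by 1.04 ± 0.29 (edgeR adjusted p = 0.0228). The second call was lost without the Cycling_T cluster, at a log2 fold change of -0.68 with adjusted p = 0.262, and without PBS mouse 1, IL10/2-Trikine mouse 4 or IL10/2-Trikine mouse 5. Of the 4 receptors tested, 2 were called in IL10/2-Trikine against PBS, where 9.42% of all genes tested were, and 1 against mono-IL10, where 8.86% were. Between mono-IL10 and PBS, 0 of 4 passed, with 1 at an unadjusted p under 0.05 and 0 by DESeq2, against 1.11% of all genes.

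The make-up of the annotated cells moved with these differences. NK cells made up 99 of 348 annotated cells after PBS, 189 of 635 after mono-IL10 and 219 of 400 after IL10/2-Trikine, and NK cells held more *Ccr2* and less *Cxcr6* than T cells did in every group mean. The lineages were therefore also tested apart.

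In NK cells, PBS mice held 29.49, 304.0, 282.2, 225.3 and 382.5 CPM of *Ccr2*, mono-IL10 mice 395.6, 305.8, 298.0 and 310.1, and IL10/2-Trikine mice 448.1, 491.8, 660.0, 429.4 and 340.3. PBS mouse 1 gave 10 NK cells and 1 *Ccr2* UMI, and 4 of 5 IL10/2-Trikine mice lay above every PBS mouse. The rise over PBS was 0.81 ± 0.24 on the log2 scale (edgeR adjusted p = 0.0475). That call sat at the threshold: it was lost in 15 of 20 alternatives, among them leaving out any mouse except PBS mouse 5 and IL10/2-Trikine mouse 5, with log2 fold changes from 0.66 to 0.97. Within the NK cluster alone, in a test chosen after that call was seen and on the same mice and mostly the same cells, *Ccr2* was 503 ± 144 CPM under IL10/2-Trikine and 228 ± 118 under PBS (SD, n = 5 mice each; exact permutation test, p adjusted over 66 such tests = 0.0327). *Cxcr6* in that cluster was 15.1 ± 13.9 CPM under IL10/2-Trikine, 35.5 ± 27.9 under PBS (SD, n = 5 each) and 61.8 ± 35.2 under mono-IL10 (SD, n = 4), and neither difference passed (exact permutation tests, adjusted p = 0.204 and 0.0629). *Ccr2* was 1 of 2 receptors tested, beside 4.63% of all genes called. In NK cells IL10/2-Trikine against mono-IL10 called 0 of 2 receptors (2 at an unadjusted p under 0.05, 0 by DESeq2; 2.51% of genes), and mono-IL10 against PBS 0 of 2 (0 and 0; 0.297% of genes).

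In T cells, *Cxcr6* separated the 2 cytokine groups, whose T cells also differed in make-up. Of 843 mono-IL10 and 725 IL10/2-Trikine annotated cells, with or without a mouse, 120 and 174 were Cycling_T cells. The naive_CD8T cells were 160 and 2, and their part in the difference was not tested. PBS mice held 215.8, 179.9, 132.6, 113.3 and 160.7 CPM of *Cxcr6*, mono-IL10 mice 285.8, 201.9, 252.7, 249.7 and 216.9, and IL10/2-Trikine mice 142.1, 112.0, 104.2, 21.37 and 74.42. Every IL10/2-Trikine mouse lay below every mono-IL10 mouse, and the difference was -1.29 ± 0.23 on the log2 scale (edgeR adjusted p = 0.000359), a call lost after thinning to the lowest total, at -0.88 (edgeR adjusted p = 0.112). Of 3 receptors tested, 1 was called there, beside 12.4% of all genes. IL10/2-Trikine against PBS called 0 of 3 (1 at an unadjusted p under 0.05, 0 by DESeq2; 9.03% of genes), and mono-IL10 against PBS 0 of 3 (2 and 1; 1.69% of genes), with *Cxcr6* at 0.68 ± 0.18 and adjusted p = 0.0542 by edgeR.

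By annotated cluster, *Cxcr6* summed over each library was 166.9, 225.5 and 44.9 CPM in Cycling_T cells of PBS, mono-IL10 and IL10/2-Trikine mice, 328.1, 483.5 and 334.6 CPM in act_CD4T cells and 294.9, 335.6 and 248.6 CPM in Treg cells, and differences between clusters were not tested. Per mouse, Cycling_T cells held 36.4 ± 26.9 CPM under IL10/2-Trikine (SD, n = 5) and 227 ± 69.6 under mono-IL10 (SD, n = 4), which did not pass (exact permutation test, p adjusted over 66 tests = 0.0551). In Cycling_T 128 of 174 IL10/2-Trikine cells held more NK than T cell marker UMIs, against 16 of 55 PBS and 18 of 120 mono-IL10 cells. With those cells counted as NK cells, the *Cxcr6* difference between the cytokine groups in T cells was -0.71, and the call was lost (edgeR adjusted p = 0.0787); this alternative was chosen after seeing the data.

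**Figure D2:**
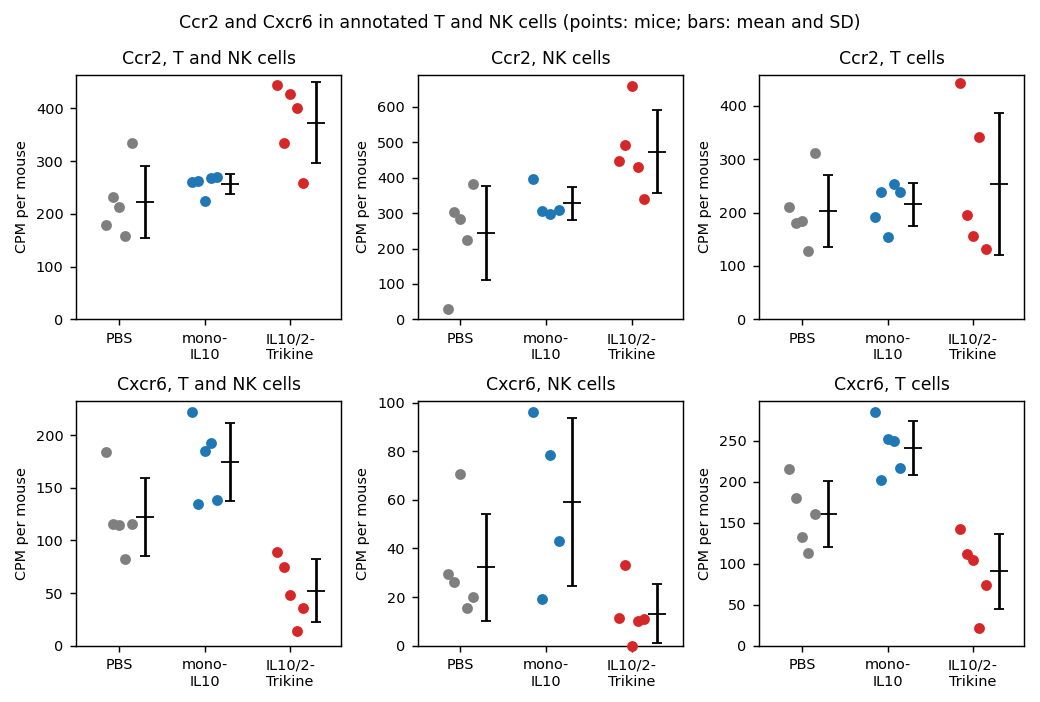
*Ccr2* (top) and *Cxcr6* (bottom) in CPM per mouse in all annotated T and NK cells, NK cells and T cells; points are mice and bars the mean and SD. IL10/2-Trikine mice sit low for *Cxcr6* in T and NK cells and T cells, all 5 below the mono-IL10 mice, and *Ccr2* in NK cells is highest in IL10/2-Trikine mouse 3 at 660.0 CPM.

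Summed over each library, *Ccr2* in the annotated NK cluster was 226.6 CPM under PBS (95% exact Poisson interval 190.8 to 267.3, counting error only), 363.6 under mono-IL10 (332.3 to 397.1) and 464.8 under IL10/2-Trikine (423.8 to 508.7). In Treg cells it was high in all 3, at 760.4, 1082 and 712.6 CPM, the last from 24 cells with an interval of 515.7 to 959.8. In gdT/NKT cells it was 42.9, 165.3 and 240.2 CPM. These library sums have no replicate and were not tested, and no T cell comparison of *Ccr2* passed.

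*Cxcr4*, the receptor that holds cells near CXCL12, did not pass in any T or NK comparison. NK cells held 251 ± 57.0 CPM after PBS (SD, n = 5), 279 ± 106 after mono-IL10 (SD, n = 4) and 193 ± 62.3 after IL10/2-Trikine (SD, n = 5), and the groups overlapped. In T cells the 5 mono-IL10 mice held at most 196.5 CPM, with a median of 158.3 CPM, and the 5 PBS mice 173.7 to 302.6 CPM, with 4 mono-IL10 mice below every PBS mouse, and the log2 fold change of -0.65 ± 0.22 did not pass (edgeR adjusted p = 0.123). In T cells IL10/2-Trikine mouse 3 stood apart at 486.2 CPM.

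*Ccr8* did not pass the low-count filter in any cell group tested alone, and *Cxcr3* passed it in T and NK cells together and in macrophage or monocyte-like cells. *Ccr8* in Treg cells was 232.8, 184.9 and 82.9 CPM under PBS, mono-IL10 and IL10/2-Trikine, the last from 5 UMIs in 24 cells. In T cells the IL10/2-Trikine mice held 0 to 24.81 CPM and the PBS mice 24.82 to 113.5 CPM, which do not overlap only by that margin, and the gene was not tested there. In T and NK cells together, also untested, *Ccr8* was 50.4 ± 23.4 CPM after PBS, 27.1 ± 5.73 after mono-IL10 and 11.4 ± 4.66 after IL10/2-Trikine (SD, n = 5 each). All 5 IL10/2-Trikine mice, at most 18.12 CPM, lay below all mono-IL10 mice, at least 19.61 CPM, and 4 of 5 below every PBS mouse. The clusters richest in *Ccr8* changed in share as well. Of 516 PBS, 843 mono-IL10 and 725 IL10/2-Trikine annotated cells, with or without a mouse, 51, 52 and 24 were Treg cells. The act_CD4T cells were 56, 88 and 28, and the part of these shares in the *Ccr8* values was not tested. *Cxcr3* in T and NK cells averaged 27.8 ± 16.7 CPM in mice given PBS, 34.4 ± 18.6 with mono-IL10 and 13.8 ± 16.5 with IL10/2-Trikine (SD, n = 5 each), and no comparison passed. *Cx3cr1* was too scarce to be tested in lymphoid cells. In NK cells it averaged 19.6 ± 12.4 CPM after PBS (SD, n = 5; 8 UMIs), 1.08 ± 2.15 after mono-IL10 (SD, n = 4; 1 UMI) and 2.16 ± 4.83 after IL10/2-Trikine (SD, n = 5; 2 UMIs), and in T cells 21.3 ± 12.3, 27.4 ± 14.6 and 13.8 ± 14.2 CPM (SD, n = 5 each). The naive_CD8T cluster, one of the 2 richest in *Cxcr3*, counted 38, 160 and 2 cells under PBS, mono-IL10 and IL10/2-Trikine.

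In macrophage or monocyte-like cells *Ccr2* and *Cx3cr1* were both lower under either cytokine than under PBS. *Cx3cr1* was 284.7, 186.8, 190.2, 194.2 and 201.0 CPM in PBS mice, 62.64, 63.85, 79.53, 85.53 and 43.46 CPM in mono-IL10 mice and 145.6, 71.79, 42.72, 156.6 and 59.38 CPM in IL10/2-Trikine mice. No mouse of either cytokine group reached the lowest PBS mouse. The fall was 1.56 ± 0.23 on the log2 scale under mono-IL10 (edgeR adjusted p = 6.34e-05) and 1.11 ± 0.24 under IL10/2-Trikine (edgeR adjusted p = 0.00366), and both calls held in 22 of 22 alternatives.

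*Ccr2* in these cells was 156.9, 111.8, 163.9, 126.6 and 158.3 CPM in PBS mice, 83.75, 119.2, 87.32, 69.57 and 79.3 CPM in mono-IL10 mice and 90.41, 70.87, 87.47, 89.12 and 63.01 CPM in IL10/2-Trikine mice. All IL10/2-Trikine mice and 4 mono-IL10 mice lay below every PBS mouse. The changes were -0.86 ± 0.13 and -0.62 ± 0.12 (edgeR adjusted p = 0.000191 and 0.000901). With a looser naming ratio of 0.3, which adds clusters to the class, they were -0.46 and -0.32 and still passed. Both calls were lost with 30 components and 40 clusters, at -0.32 and -0.10, and the first also in cells with at least 2000 genes, at -0.42.

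*Cxcr4* rose under mono-IL10, from 526.8, 435.2, 529.2, 608.7 and 669.4 CPM to 601.4, 740.0, 674.3, 670.5 and 856.3 CPM, by 0.44 ± 0.12 (edgeR adjusted p = 0.0116), a call lost with 30 components and 40 clusters, at 0.25 (edgeR adjusted p = 0.169). Under IL10/2-Trikine it was 0.19 ± 0.12 above PBS and did not pass. *Cxcr6* was scarce, at 2.36, 1.67, 1.95, 2.84 and 2.37 CPM in PBS mice and 5.57, 3.35, 5.09, 5.24 and 3.63 CPM in IL10/2-Trikine mice, with no overlap and a difference of 1.04 ± 0.30 (edgeR adjusted p = 0.0224), lost without PBS mouse 2 or IL10/2-Trikine mouse 1. Summed T cell markers in the same cells were 21.14 to 37.19 CPM in PBS mice and 48.96 to 71.15 CPM in IL10/2-Trikine mice, with 6 of 6 markers detected, against 1563 to 3947 CPM in T cells. Summed NK cell markers were 6.97 to 11.04 CPM and 24.24 to 49.66 CPM, with 6 of 6 detected, and summed tumor epithelial markers 48.04 to 99.56 CPM and 85.44 to 142.2 CPM, with 5 of 5 detected. Their part in the *Cxcr6* value was not tested. Of 5 receptors tested, 3 were called in IL10/2-Trikine against PBS, beside 18.4% of all genes, and 3 in mono-IL10 against PBS, beside 25.6%. IL10/2-Trikine against mono-IL10 called 0 of 5 (1 at an unadjusted p under 0.05, 0 by DESeq2; 11.6% of genes).

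**Figure D3:**
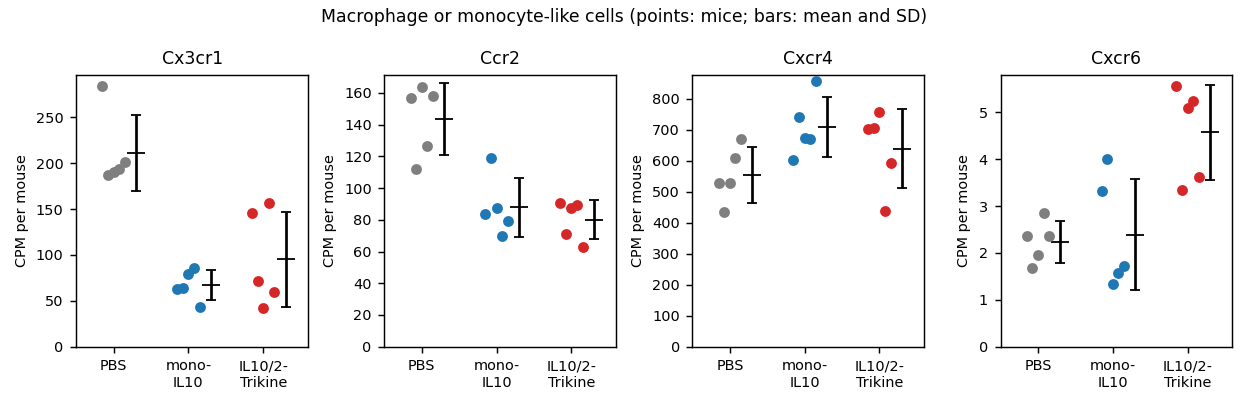
*Cx3cr1*, *Ccr2*, *Cxcr4* and *Cxcr6* in CPM per mouse in macrophage or monocyte-like cells; points are mice and bars the mean and SD. The PBS mice are highest for *Cx3cr1*, between 186.8 and 284.7 CPM, with both cytokine groups below them.

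The myeloid clusters changed in share as well. Cluster 57 (leading genes *Ear2*, *Dcstamp* and *Mgl2*) was 15.41% of PBS cells of this class and 4.018% and 3.903% under mono-IL10 and IL10/2-Trikine, and the monocyte-like cluster 36 (*Ly6c2*, *Chil3*) was 4.928%, 2.55% and 0.9656%. Among the named clusters of this class those held most *Ccr2*, at 330 and 671.3 CPM in PBS, and cluster 41 (*Fcrls*), with most *Cx3cr1*, held 36.86 CPM of *Ccr2* and 448.5 CPM of *Cx3cr1*. Cluster 40 (*Ccl24*, *Arg1*), of 2013 cells, stayed unnamed and outside the class, with 376.3, 429.1 and 406.4 CPM of *Ccr2* under PBS, mono-IL10 and IL10/2-Trikine. Mean UMIs per cell in the class were 6009, 7121 and 3179 under PBS, mono-IL10 and IL10/2-Trikine.

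Within clusters, the mean of log2(CPM + 10) of *Cx3cr1* was lower than in PBS in 10 of 10 clusters under both cytokines, and 9 of 10 under mono-IL10 and 5 of 10 under IL10/2-Trikine passed an exact permutation test over mice adjusted over 66 tests. In cluster 41 it was 437 ± 75.2 CPM after PBS, 157 ± 44.7 after mono-IL10 and 226 ± 113 after IL10/2-Trikine, and in cluster 20 it was 271 ± 33.2, 51.4 ± 8.52 and 105 ± 61.9 (SD, n = 5 mice each). *Ccr2* was lower by its mean in 8 of 10 clusters under IL10/2-Trikine and 7 of 10 under mono-IL10, and 0 passed in either comparison. The named clusters richest in *Ccr2* were not among the lower ones: cluster 57 held 422 ± 127 CPM under IL10/2-Trikine and 334 ± 49.5 under PBS (SD, n = 5 each), and monocyte-like cluster 36, summed over each library and not tested, held 671.3, 751.5 and 935.5 CPM under PBS, mono-IL10 and IL10/2-Trikine. Under mono-IL10 the highest difference was in cluster 28, at 1.26 on the log2 scale. By the mean of log2(CPM + 10), *Cxcr4* was higher in 6 of 10 clusters under mono-IL10 and *Cxcr6* in 8 of 10 under IL10/2-Trikine, with 0 passing. The smallest p is 0.007937 with 5 mice in at least 1 group and 0.02857 with 4 against 4, the value *Cx3cr1* had in cluster 35 under mono-IL10 (exact permutation test, adjusted p = 0.0725), the one cluster that did not pass there. They were chosen after seeing the data.

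**Figure D4:**
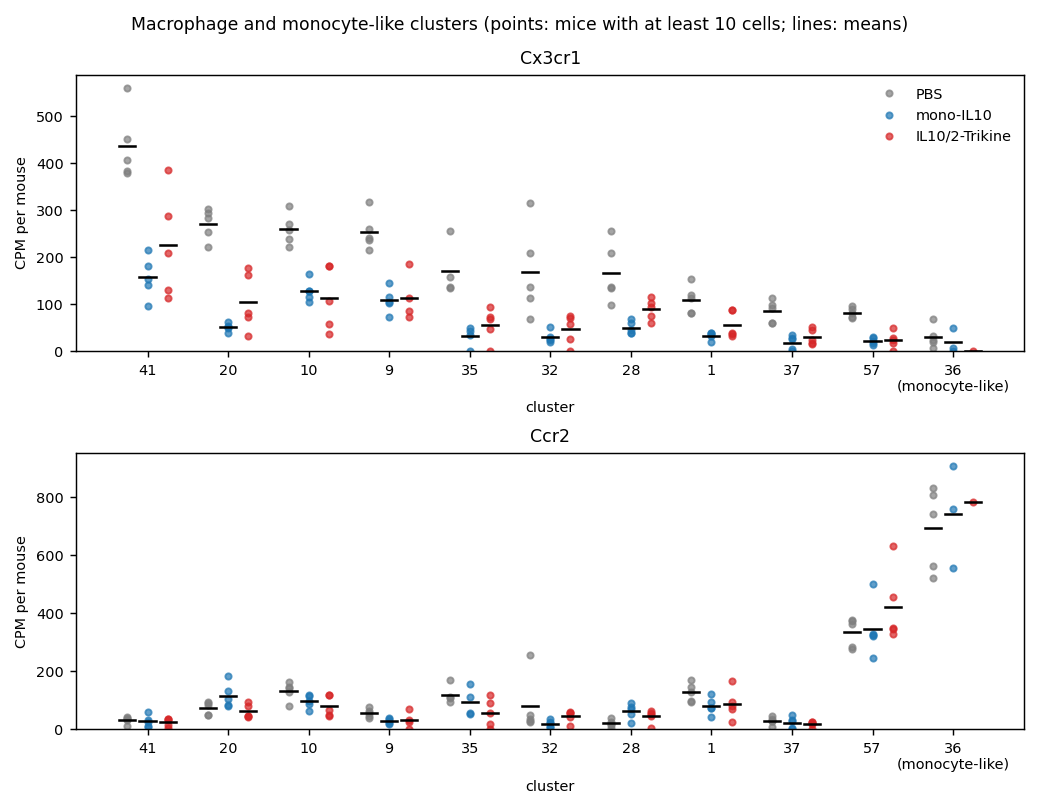
*Cx3cr1* (top) and *Ccr2* (bottom) in CPM per mouse in each macrophage or monocyte-like cluster; points are mice with at least 10 cells and lines the means. The PBS mean of *Cx3cr1* is the highest of the 3 in every cluster, while *Ccr2* is concentrated in clusters 57 and 36 in all groups.

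The size of the treatment difference of *Ccr2* and *Cxcr6* was compared between lymphoid and myeloid cells by testing the difference of the log2 changes. For IL10/2-Trikine against PBS, the log2 change in T and NK cells minus that in macrophage or monocyte-like cells was 1.62 ± 0.18 for *Ccr2* (edgeR adjusted p = 6.19e-07) and -2.002 ± 0.43 for *Cxcr6* (edgeR adjusted p = 0.00371). This called 2 of 6 receptors, beside 3.98% of genes. For IL10/2-Trikine against mono-IL10, *Ccr2* (0.63 ± 0.17, edgeR adjusted p = 0.0322) and *Cxcr6* (-2.41 ± 0.42, edgeR adjusted p = 0.000268) were called, 2 of 6 beside 2.82% of genes. That *Ccr2* call was lost without mono-IL10 mouse 2, at 0.52, and without IL10/2-Trikine mouse 1 or 2, at 0.63 and 0.62 (edgeR adjusted p = 0.0931, 0.065 and 0.0678). For mono-IL10 against PBS, *Ccr2* (0.99 ± 0.17) and *Cxcr4* (-0.74 ± 0.17) were called, 2 of 6 beside 3.33% of genes. Between NK and T cells the same test called 0 of 3 receptors in each comparison, beside 0.077%, 0.796% and 0.128% of genes, with 0, 1 and 1 at an unadjusted p under 0.05. The lymphoid to myeloid test was added after seeing the data and was not repeated with 30 components and 40 clusters. Both sides were pools whose make-up moved with treatment, and the part of that was not tested. NK cells went from 99 of 348 cells after PBS to 219 of 400 after IL10/2-Trikine. Clusters 57 and 36 went from 15.41% and 4.928% to 3.903% and 0.9656% of the myeloid class. *Ccr2* rose over PBS by 0.81 in NK cells, and by 0.39 in T cells, which did not pass. Within myeloid clusters *Ccr2* passed in 0 of 10. Myeloid *Cxcr6* averaged 2.24 CPM after PBS and 4.57 after IL10/2-Trikine. For IL10/2-Trikine against mono-IL10, *Ccr2* passed in neither class by itself, and *Cxcr6* passed in T and NK cells and not in macrophage or monocyte-like cells.

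Dendritic cell-like cells gave 1 call. *Cxcr4* was 216.5, 193.8, 173.8, 217.9 and 206.8 CPM in PBS mice and 439.9, 319.8, 321.8, 226.4 and 296.6 CPM in IL10/2-Trikine mice, all above the PBS mice, a rise of 0.66 ± 0.15 on the log2 scale (edgeR adjusted p = 0.0434). The mature dendritic cell-like cluster 52, which held more *Cxcr4* than the other dendritic cell-like cells (337.4 against 147.5 CPM over the 3 libraries), made up 23.9% of this class after PBS and 37.64% after IL10/2-Trikine, while cluster 58 went from 28.04% to 17.03%. The call was lost in 14 of 21 alternatives, among them leaving out any mouse except mono-IL10 mice 2 and 5 and IL10/2-Trikine mouse 4, with log2 fold changes from 0.47 to 0.73. The tests within clusters were chosen after that call was seen and used the same mice and cells. Within the mature dendritic cell-like cluster 52, *Cxcr4* was 488 ± 87.3 CPM under IL10/2-Trikine and 298 ± 83.1 under PBS (SD, n = 5 each), with no overlap (two-sided exact permutation p = 0.00794, the smallest that 5 against 5 mice can give, p adjusted over 66 such tests = 0.0327). The margin was narrow, with the lowest IL10/2-Trikine mouse at 397.6 CPM and the highest PBS mouse at 396.8 CPM. In cluster 24 *Cxcr4* was 196 ± 50.7 and 167 ± 15.6 CPM (SD, n = 5 each, exact permutation p = 0.397). *Cxcr4* was 1 of 3 receptors tested, beside 0.705% of genes. IL10/2-Trikine against mono-IL10 called 0 of 3 (1 at an unadjusted p under 0.05, 1 by DESeq2; 1.28% of genes) and mono-IL10 against PBS 0 of 3 (1 and 0; 2.07% of genes), where *Cx3cr1* was 15.2 ± 21.4 CPM against 41.5 ± 17.8 (SD, n = 5 mice each).

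**Figure D5:**
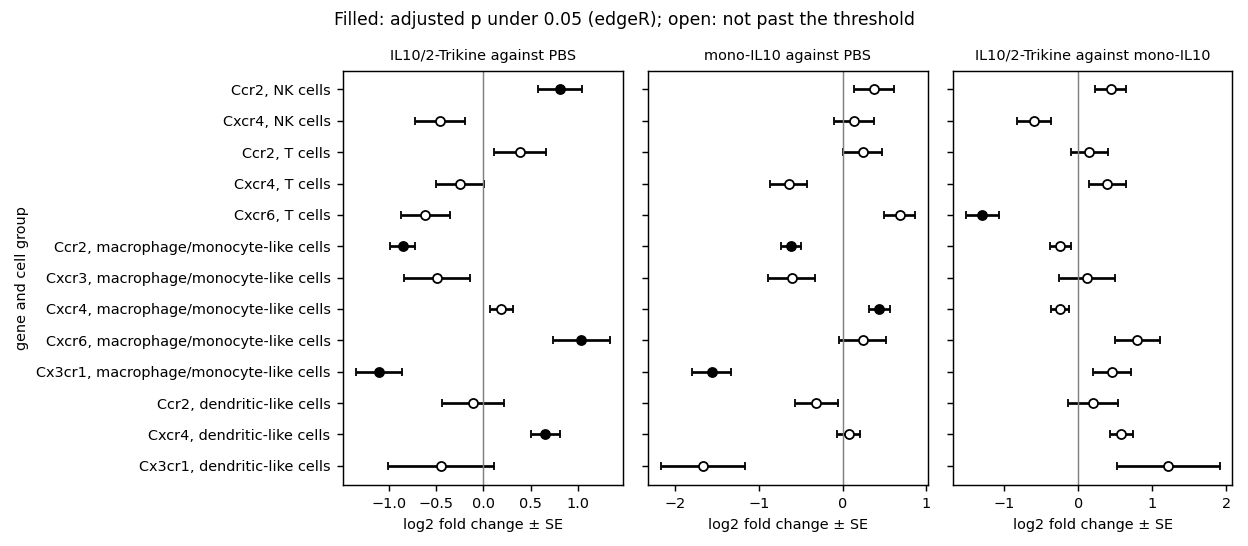
Log2 fold change with its SE for each receptor tested in NK cells, T cells, macrophage or monocyte-like cells and dendritic cell-like cells, in the 3 comparisons. The pooled T and NK cells are not shown. Filled points passed an adjusted p under 0.05 in edgeR and open points did not. *Cx3cr1* in macrophage or monocyte-like cells lies farthest left among the filled points of both comparisons with PBS.

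The rest of the homing system was read from lists of 68 genes. In T and NK cells, IL10/2-Trikine against PBS called 4 of 37 tested genes higher and 5 lower, beside 9.42% of all genes. These are calls in the pooled cells, in which NK cells were 99 of 348 after PBS and 219 of 400 after IL10/2-Trikine and naive_CD8T cells, counted with or without a mouse, were 38 and 2. Of 3 tested egress receptors 2 fell in the pool: *S1pr1*, a sphingosine 1-phosphate receptor, from 34.3 ± 14.8 to 10.98 ± 12.4 CPM (log2 fold change -2.20), and *Gpr183*, the oxysterol receptor, from 193 ± 28.7 to 109 ± 19.7 CPM (SD, n = 5 mice each). *Klf2*, the transcription factor that drives *S1pr1*, fell by 1.38, *Ccr7*, the lymph node homing receptor, by 1.43, and *Itga4*, an integrin subunit, by 0.74 on the log2 scale. The *Klf2* call sat near the threshold (edgeR adjusted p = 0.0432). Its groups overlapped, at 43.43 to 171.9 CPM after PBS and 16.34 to 80.48 CPM after IL10/2-Trikine. The integrin subunits *Itgax* and *Itgal* rose by 0.94 and 0.50. In cells annotated as T cells 0 of 31 tested list genes rose and 2 fell, beside 9.03% of all genes. These were *Gpr183*, by 0.77 (edgeR adjusted p = 0.0479), and *Itga4*, by 0.78 (edgeR adjusted p = 0.022). Of other chemokine receptors 0 of 3 and of regulators 0 of 7 were called in the annotated T cells. Those cells include the Cycling_T cluster, where 73.56% of IL10/2-Trikine and 29.09% of PBS cells held more NK than T cell marker UMIs, and the part of those cells in the list calls was not tested. In NK cells alone 1 of 25 rose, *Ccl8*, and 2 fell, the signalling genes *Rgs2* and *Gpsm3*, beside 4.63%, and 0 of 1 other chemokine receptor and 0 of 6 regulators were called. *Ccl8*, whose mouse product is an agonist of CCR8, rose by 1.16 in the pooled cells, where it stood at 199.7 CPM under IL10/2-Trikine against 3608 CPM in macrophage or monocyte-like cells, and the part of RNA from macrophages was not tested.

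In macrophage or monocyte-like cells *Ccl8* rose by 1.68 under IL10/2-Trikine and 1.56 under mono-IL10 on the log2 scale, from 1111 ± 321 CPM in PBS mice (SD, n = 5). The ligand list also held enzymes that make or break down sphingosine 1-phosphate. Of its 11 tested genes, 3 rose and 1 fell under IL10/2-Trikine, beside 18.4% of all genes called, and 6 rose and 1 fell under mono-IL10, beside 25.6%. Both counts of rises include such enzymes, and the chemokines among the rises were *Ccl8*, *Ccl12* and, under mono-IL10, *Cxcl16*. *Ccl12*, a CCR2 ligand, rose by 1.17 and 0.57, and *Cx3cl1*, the ligand of CX3CR1, fell by 1.76 and 1.65 from 3.40 CPM. *Cxcl16*, the ligand of CXCR6, rose by 0.47 under mono-IL10 and was lower under IL10/2-Trikine than under mono-IL10, a log2 fold change of -0.49. Of 9 tested other chemokine receptors, 1 rose and 1 fell under IL10/2-Trikine and 3 rose and 1 fell under mono-IL10, beside the same shares. *Ccr7* was the one that fell in both, at log2 fold changes of -1.27 and -2.11.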

How the data were processed

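Single-cell 5′ RNA and hashtag libraries of CD45+ tumor cells were analyzed from 3 treatment groups. The authors aligned reads with Cell Ranger 9.0.1 to GRCm39 and deposited UMI counts per gene and cell, with an annotation of T and NK cells; 7858 annotated cells belonged to a group with no sample and were not used here. Per the labels, Seurat 5.1.0 and DESeq2 1.46.0 were used upstream. Barcodes under 1000 genes or above 10% mitochondrial UMIs were dropped, and mice were called by hashtag in the rest (Seurat 5.3.0, quantile 0.99). Hashtag doublets (8.504% to 12.17%) were removed, and annotated cells were kept in either case. No mouse was called for 20.3% of these PBS barcodes, 17.91% of mono-IL10 and 32.12% of IL10/2-Trikine barcodes. The cells kept were placed in 60 clusters on 40 components without the receptor genes. Clusters were named by marker lists.

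Counts were summed per mouse and cell group. A mouse entered with at least 10 cells, which left mono-IL10 mouse 3 out of the NK cell fit. Sums per mouse held 35 to 215 T and NK cells and 124258 to 995020 UMIs. edgeR 4.0.16 quasi-likelihood tests used TMM factors, filterByExpr and 1 fit over the 3 groups, with Benjamini-Hochberg adjustment over all genes tested and a threshold of 0.05. Differences between cell groups were tested as interactions with the mouse as a block. Within clusters, exact two-sided permutation tests used log2(CPM + 10). The edgeR fits were tested on simulated data. Alternatives were DESeq2 1.42.0, no TMM, no filter, thinning, leaving out each mouse and other clusterings. All 7 receptors are reported, and from each pathway list at most 4 called genes by size. 1 gene that these rules would name is not reported here. The receptors, lists and tests were chosen with earlier results of these data known.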

Additional observations from a re-analysis of the deposited data

Results flagged for a closer look

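In 51 groups of mice examined, 6 held a mouse far from its group by Dixon's criterion, where chance gives about 1 in 20. *Ccr2* in T and NK cells was 223.7 CPM in mono-IL10 mouse 3, below the other mice at 260.3 to 270.7. *Cxcr4* in the same cells was 386.3 CPM in IL10/2-Trikine mouse 3, above 150.1 to 210.6. *Ccr2* in NK cells was 395.6 CPM in mono-IL10 mouse 1, above 298 to 310.1. *Cx3cr1* in macrophage or monocyte-like cells was 284.7 CPM in PBS mouse 1, above 186.8 to 201. In dendritic cell-like cells *Cxcr4* was 260.7 CPM in mono-IL10 mouse 2, above 177.5 to 194.5, and *Cx3cr1* was 53.19 CPM in mono-IL10 mouse 3, above 4.068 to 9.837.

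Treatment differences that were not the same in pooled T and NK cells as in macrophage or monocyte-like cells were found by an edgeR interaction test. That test was added after the separate results were seen, on the same mice. On the log2 scale, lymphoid minus myeloid, *Ccr2* differed by 1.622 for IL10/2-Trikine against PBS, 0.6285 for IL10/2-Trikine against mono-IL10 and 0.9938 for mono-IL10 against PBS. *Cxcr6* differed by -2.002 and -2.414 in the first and second of these, and *Cxcr4* by -0.7405 in the third. The *Ccr2* call at 0.6285 was lost in 3 of 16 alternatives.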

How the results depend on the processing

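Of 413 recomputed counts of called receptors 351 equalled the reported count or stayed within 1.5 times it, and of 352 recomputed fold changes 308 kept direction and call, 44 lost the call and 0 reversed. The 351 include reported counts of 0 that stayed at 0, and the receptors called need not be the same. Counts by setting were as follows, in the order reported first. Without the Cycling_T cluster 1 receptor was called in T and NK cells for IL10/2-Trikine against PBS. With DESeq2, 2 were called there against mono-IL10, 1 in T cells for mono-IL10 against PBS and 1 in dendritic cell-like cells for IL10/2-Trikine against mono-IL10. With no filter on low counts, 2 were called in T and NK cells and 2 in T cells for IL10/2-Trikine against mono-IL10, and 1 each in NK cells for IL10/2-Trikine against mono-IL10, in T cells for IL10/2-Trikine against PBS, and in T and NK cells, T cells and dendritic cell-like cells for mono-IL10 against PBS. Thinning to the lowest total called 0 in NK and dendritic cell-like cells for IL10/2-Trikine against PBS and 0 in T cells against mono-IL10. Without annotated cells with 2 or more macrophage UMIs, 0 were called in NK cells, and with NK-like Cycling_T cells moved 0 in NK and 0 in T cells. In macrophage or monocyte-like cells, cells with at least 2000 genes gave 2 and a naming ratio of 0.3 gave 1 for IL10/2-Trikine against mono-IL10, and 30 components with 40 clusters gave 1 for mono-IL10 against PBS. That clustering gave 0 and 1 in dendritic cell-like cells for IL10/2-Trikine and mono-IL10 against PBS, and totals without TMM gave 1 for IL10/2-Trikine against mono-IL10. The cause of these changes was not tested.

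Leaving out each mouse gave 1 to 3, 1 to 2 and 0 calls in T and NK cells, 0 to 1, 0 and 0 in NK cells, 0, 1 and 0 to 1 in T cells, 2 to 3, 0 to 1 and 3 in macrophage or monocyte-like cells, 0 to 1 in each dendritic comparison, 0 in each NK to T comparison, and 2 to 3, 1 to 3 and 2 between lymphoid and myeloid cells, for IL10/2-Trikine against PBS, against mono-IL10 and mono-IL10 against PBS. T cells without Cycling_T and dendritic cell-like cells with at least 2000 genes left too few IL10/2-Trikine mice and were not run. No paired analysis was possible because the mice carry no number that pairs them across groups. Low UMI sums limit *S1pr5*, *Ccr8* and *Cxcr3*.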
